A study of Homo sapiens with 6 samples.

Results

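Histone deacetylases, lysine methyltransferases and lysine demethylases were described as 1 group of 56 genes, chosen by symbol. The group holds every gene whose symbol began with HDAC, KDM, KMT or SETD and a number, plus 9 methyltransferases named singly (EZH1, EZH2, EHMT1, EHMT2, SUV39H1, SUV39H2, NSD1, NSD2 and DOT1L). They were 56 of the 18132 genes with a probe set naming that gene alone, and 55 of the 56 were bright enough to be tested among 13694 tested genes. The rule used symbols only.

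Transcripts were measured on 6 Affymetrix arrays, 1 per tumor, from tumors of CRL-5889, an established line labelled as human lung squamous carcinoma. The cells were grown in nude mice, which lack a thymus and keep macrophages, NK cells and B cells, and tumors were harvested at 4 weeks. The fusion group was 3 tumors of cells transfected with TRA2B-DNAH5, and the vector group was 3 tumors of cells transfected with the vector. The labels name no promoter, do not say whether each transfected population was a clone or a pool, and describe RNA from 1 frozen piece of tissue. Each tumor is labelled a biological replicate, without naming the mouse.

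Deacetylases remove acetyl groups from lysines of histone tails, which tightens chromatin, and mostly act inside corepressor complexes. Methyltransferases and demethylases write and erase methyl groups on set lysines: H3K4 marks active promoters and enhancers, H3K36 and H3K79 mark transcribed genes, and H3K9, H3K27 and H4K20 mark silent or compact chromatin. In lung and other carcinomas these enzymes are often mutated or overexpressed, EZH2, KMT2D and NSD2 among them. A transcript level says nothing of enzyme activity or of the marks themselves.

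On the log2 scale the median of all probe sets was 6.27 in vector tumor 1 and 6.34 to 6.39 in the other tumors. Pearson's r across probe sets was between 0.989 and 0.997 for any 2 arrays. Vector tumor 1 stood apart on the first principal component (score 55.8, against -14.8 to -2.73 in the others). Squamous markers were weak for a line with that label: DSG3 and DSC3 were dim, under the filter on probe sets (a mean log2 level of 4.94), and KRT5 and KRT14 had means of 5.06 and 5.71 in fusion tumors, while SOX2 was at 8.82 in fusion and 9.65 in vector tumors. Of 12 squamous markers 9 had a probe set naming that gene alone, and 6 were tested. The summed signal of the 9 was 9.47 to 9.64 in fusion and 9.81 to 10.47 in vector tumors, led by SOX2. Of 9 epithelial markers 5 were tested. EPCAM, CDH1, ESRP1 and GRHL2 also lay below the filter, and KRT7, KRT8 and KRT19 were at 5.01 to 5.29 in fusion tumors. KRT18 was well above it, at 8.55 in fusion and 8.57 in vector tumors, as was CLDN4, at 7.36 and 7.35. The summed signal of all 10 fibroblast markers, of which 8 were tested, was 11.29 to 11.43 in fusion and 10.83 to 11.15 in vector tumors. It was led by THY1 (means 10.92 and 10.57). Of the 8, 7 had a log2 fold change above 0 and 1, ACTA2, below (-0.13). PDGFRB was at 0.019, and DCN and LUM lay below the filter. Of 10 leukocyte markers 9 had a probe set naming that gene alone, and 5 were tested. The summed signal of these 9 was 9.48 to 9.64 in fusion and 9.20 to 9.26 in vector tumors. It was led by CD68, with PTPRC, CD14 and LYZ below the filter. Of the 5 tested, 4 had a log2 fold change above 0 (CD68 0.80, the others 0.020 to 0.17) and 1, TYROBP, below (-0.13). The summed adipocyte signal was 8.90 to 8.97 in fusion and 9.002 to 9.17 in vector tumors. The part of these other cells, or of mouse RNA on human probes, in the values below was not tested. Fewer cells of a type and less RNA per cell cannot be told apart in these bulk samples.

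No member of the group passed the threshold in the comparison of fusion with vector tumors. With limma and Benjamini-Hochberg adjustment over all genes, 0 of 55 members had an adjusted p below 0.05, where 0.073% of all tested genes did (0.0584% higher and 0.0146% lower in fusion tumors), and the smallest adjusted p was 0.614. At an unadjusted p below 0.05 there were 2 members, HDAC9 and KDM4D, both higher in fusion tumors, or 3.64% against a background of 5.89%. That count was 0 without fusion tumor 3, 1 without fusion tumor 2 or vector tumor 2, and 5 without vector tumor 1. Without fusion tumor 1 KDM7A joined HDAC9 and KDM4D. Each of these fits has its own background, so the counts are not to be set against 5.89%. The background for the 5 is given below with that fit. The median log2 fold change of the members was 0.010, beside 0.0020 over all tested genes, with 29 members above 0 and 26 below. Their values ran from -0.15 for HDAC11 to 0.35 for HDAC9.

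The intervals set limits on the size of a difference on the 1 probe set used for each gene. For 52 of 55 members the 95% confidence interval lay wholly within a 1.5-fold change in either direction, a log2 value of 0.58, and this held for 89.6% of all tested genes. HDAC9, EZH1 and KDM7A were the exceptions, each reaching past 1.5-fold on the side higher in fusion tumors. The limits do not cover other probe sets of the same genes. In the fit over all probe sets, intervals ran from 0.30 to 0.74 for 1 of KMT5B and from -0.17 to 1.12 for 1 of KMT2E.

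**Figure D1:**
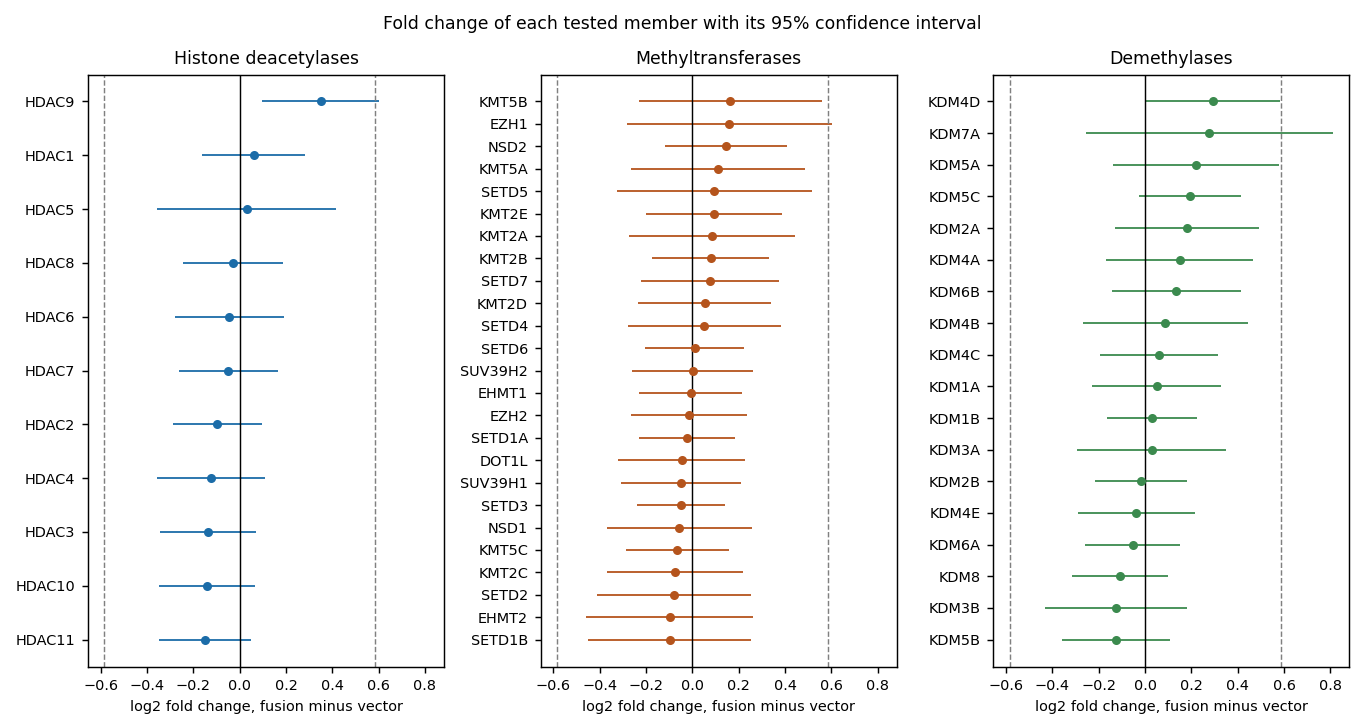
Log2 fold change, fusion minus vector tumors, of 54 tested members in 3 families (KDM5D, on the Y chromosome, is not drawn); points are limma estimates, bars 95% confidence intervals, and dashed lines mark 1.5-fold in either direction. Only the bars of HDAC9 and KDM4D leave 0 on one side, and only those of HDAC9, EZH1 and KDM7A pass a dashed line.

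HDAC9 had the largest fold change of the group. It encodes a class IIa deacetylase, a class with little catalytic activity of its own that binds MEF2 transcription factors and represses their targets. Fusion tumors 1 to 3 had log2 levels of 8.86, 8.98 and 9.07, and vector tumors 1 to 3 had 8.45, 8.70 and 8.71; levels below follow the same order. Every fusion tumor lay above every vector tumor, with a gap of 0.14 between the nearest, and vector tumor 1 was the lowest. The means were 8.97 ± 0.11 and 8.62 ± 0.15 (SD, n = 3 each), a 1.27-fold difference (log2 fold change 0.35, SE 0.11, 95% confidence interval 0.098 to 0.60, unadjusted p = 0.0123, adjusted p = 0.614 by limma). The exact two-sided permutation p was 0.1, the smallest that 3 against 3 tumors can give. Without vector tumor 1 the log2 fold change was 0.26 (unadjusted p = 0.0245, adjusted p = 0.450 by limma; the fit had 3 fusion and 2 vector tumors).

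Other probe sets of HDAC9 did not all give the same picture. Of its 5 probe sets, the brightest is the one above, and the next brightest had a log2 fold change of -0.049 (SE 0.16). The remaining 3 were dim, at mean log2 levels of 5.04, 5.05 and 5.61, with log2 fold changes of 0.048, 0.032 and 0.52 (SE of the last 0.30). With the probe sets averaged, or the most variable one taken, HDAC9 no longer had an unadjusted p below 0.05. Vector tumor 1 was the lowest of the 6 tumors on each of the 5 probe sets.

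KDM4D had the other unadjusted p below 0.05. It removes methyl groups from H3K9 and lacks the PHD and Tudor reader domains of KDM4A, KDM4B and KDM4C. Its levels were 5.13, 5.44 and 5.13 in fusion tumors and 4.95, 4.77 and 5.10 in vector tumors, close to the filter level of 4.94. The groups were 0.034 apart at their nearest, and fusion tumor 2 stood well above the rest. The log2 fold change was 0.29 (SE 0.13, 95% confidence interval 0.0063 to 0.58, unadjusted p = 0.0462, adjusted p = 0.830 by limma; exact permutation p = 0.1). Its probe set has a suffix for probes shared between transcripts, and the other KDM4D probe set, below the filter, had a log2 fold change of 0.19 with the groups also apart. KDM4E, a close relative, had one of -0.037.

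The sequence just upstream of an annotated start is shown for both genes. They are the members with the smallest p, and these windows differ in CpG content. The windows hold 250 bases, 5′ to 3′ on the gene's strand, from RefSeq on GRCh38.p14: chr7:18495499-18495748, plus strand, for HDAC9 and chr11:94973459-94973708, plus strand, for KDM4D. Capitals mark matches, on either strand, to GGGCGG (the SP1 core), CCAAT (NF-Y), CCGGAAG (ETS factors), TATAAA (the TATA box) or TGANTCA (AP-1).
HDAC9: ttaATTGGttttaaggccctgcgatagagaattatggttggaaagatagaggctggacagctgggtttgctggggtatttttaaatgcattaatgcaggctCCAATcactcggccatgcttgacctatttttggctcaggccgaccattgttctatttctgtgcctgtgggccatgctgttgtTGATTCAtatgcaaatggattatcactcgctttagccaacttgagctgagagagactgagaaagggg
KDM4D: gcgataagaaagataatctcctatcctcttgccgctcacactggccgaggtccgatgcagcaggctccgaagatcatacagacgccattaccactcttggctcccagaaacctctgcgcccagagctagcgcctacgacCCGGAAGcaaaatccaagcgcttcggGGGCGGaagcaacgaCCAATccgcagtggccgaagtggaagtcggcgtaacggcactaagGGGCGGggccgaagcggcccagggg
The HDAC9 window holds 4 CpG pairs, 2 CCAAT matches and 1 AP-1 match, with no GGGCGG. The KDM4D window holds 22 CpG pairs, 2 GGGCGG matches, 1 CCAAT and 1 CCGGAAG match. A match is only a match of letters, other start sites of these genes were not examined, and no data here measure binding.

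Across the group such a CpG-poor start was uncommon. A promoter window of 300 bases (250 before the start and 50 after) was held for 52 members, the first usable entry of each gene. The ratio of observed to expected CpG was above 0.6 in 47 of them (90.4%), beside 77.0% of tested genes and 48.9% of all promoters in the table. The 5 at or below 0.6 were HDAC4 (0.14), SUV39H1 (0.30), HDAC9 (0.31), NSD1 (0.34) and HDAC8 (0.50). GGGCGG was present in 73.1% of members and 66.9% of tested genes, CCAAT in 34.6% and 36.2%, and CCGGAAG in 15.4% and 17.5%. TATAAA occurred in 0 of the 52 windows and in 6.57% of tested genes, and TGANTCA in 3 windows (5.77%), those of HDAC9, KDM4C and KDM6A, and in 4.83% of tested genes.

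Among the other deacetylases, small values below 0 prevailed, none past the threshold. Of all 11 deacetylases 8 had a log2 fold change below 0, with a median of -0.049. Taking the most variable probe set instead, 4 of the 10 then tested were below 0 and the median was 0.081. HDAC2, a catalytic subunit of the SIN3, NuRD and CoREST corepressor complexes, was at 10.83, 10.83 and 10.75 in fusion tumors and 10.92, 10.89 and 10.90 in vector tumors. The groups were separate by 0.056, and the log2 fold change was -0.097 (SE 0.084, adjusted p = 0.963 by limma). HDAC1, its partner in those complexes, was at 11.41, 11.16 and 11.27 and at 11.23, 11.25 and 11.17, with fusion tumors on both sides of the vector tumors and a log2 fold change of 0.060 (95% confidence interval -0.16 to 0.28).

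HDAC3, the catalytic subunit of the NCOR and SMRT complexes, was at 9.03, 8.90 and 8.83 in fusion and 9.06, 9.06 and 9.04 in vector tumors. Vector tumors were nearly identical, fusion tumor 1 was only 0.017 below them, and the log2 fold change was -0.14 (SE 0.090, adjusted p = 0.962 by limma). HDAC8, the remaining class I enzyme, had a log2 fold change of -0.027.

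HDAC11, the class IV enzyme, which also removes fatty acyl groups, was at 6.96, 7.02 and 6.90 in fusion and 7.12, 7.15 and 7.05 in vector tumors. This was the lowest value of the whole group, a log2 fold change of -0.15 (SE 0.087, 95% confidence interval -0.35 to 0.051, adjusted p = 0.956 by limma). On its other 4 probe sets the groups overlapped, with log2 fold changes from -0.069 to 0.14. HDAC10, a class IIb enzyme that deacetylates polyamines, was at 7.16, 7.001 and 7.17 and at 7.26, 7.21 and 7.28, a log2 fold change of -0.14 (SE 0.091, adjusted p = 0.962 by limma). HDAC6, the tubulin deacetylase, had a log2 fold change of -0.045 and overlapping groups.

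The other class IIa genes had smaller log2 fold changes than HDAC9, in both directions. HDAC4 was at 7.51, 7.51 and 7.38 in fusion and 7.44, 7.69 and 7.65 in vector tumors, a log2 fold change of -0.13 (adjusted p = 0.963 by limma). Without probe sets of suffix _s_at or _x_at it was 0.031, on a dimmer probe set (mean log2 level 5.69, against 7.53). HDAC7 was at -0.049. HDAC5 was at 0.030 and had the widest range of the deacetylases after HDAC9, with a range of 0.60 over the 6 tumors and tumor 3 the lowest in both groups.

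Counted over the group, fusion and vector tumors did not overlap for 8 of 55 members (14.5%, beside 11.7% of all tested genes). HDAC9, KDM4D and KDM5C were higher in fusion tumors (3 of 55, background 5.94%), and HDAC2, HDAC3, HDAC10, HDAC11 and SETD3 were lower (5 of 55, background 5.74%). Thus 5 of the 8 were among the 11 deacetylases, with 1 among 25 methyltransferases and 2 among 19 demethylases. The median SD within groups was 0.085 for deacetylases, 0.18 for methyltransferases, 0.16 for demethylases and 0.14 over all tested genes. Where that SD is small, a small gap is enough to keep the groups apart. The split by family was not tested. The gaps between the nearest tumors ran from 0.0061 for SETD3 to 0.14 for HDAC9. With all probe sets of a gene averaged the count was 2, and with the most variable probe set it was 5, of which 3 were among the 8. Without vector tumor 1 it was 17, against a background of 25.9%, and without fusion tumor 1 it was 14, against 21.8%.

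**Figure D2:**
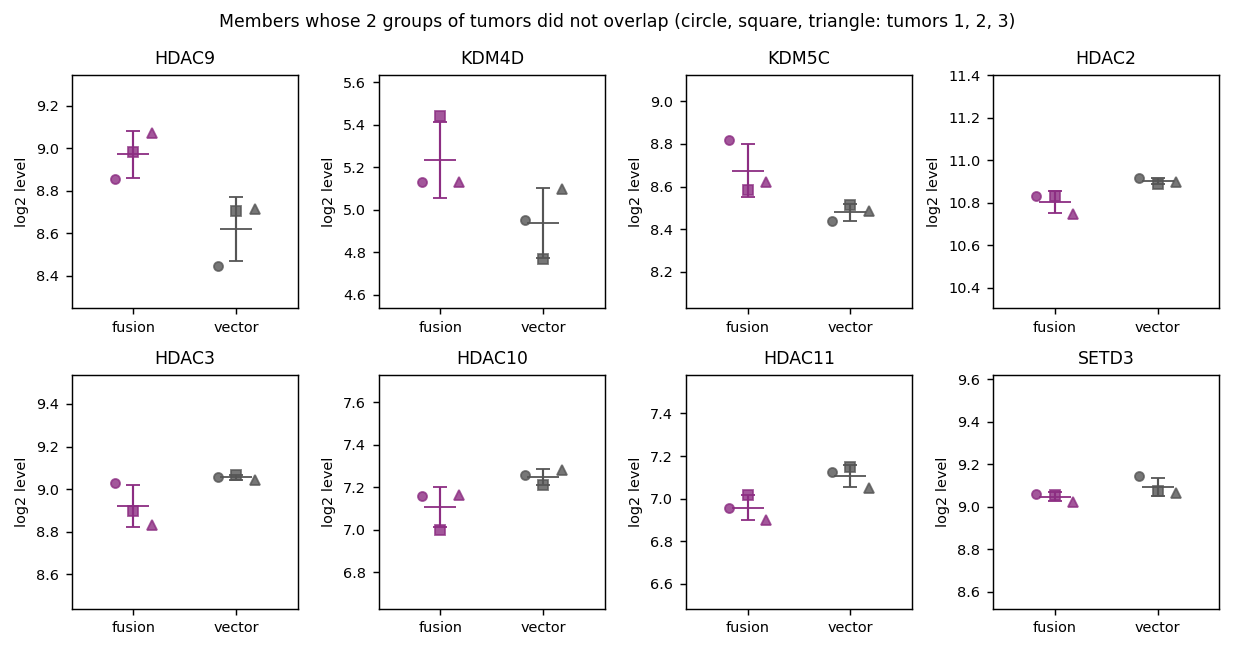
Log2 level of the 8 members whose groups of tumors did not overlap, one point per tumor (circle, square and triangle for tumors 1, 2 and 3), with the mean and SD of each group of 3; every panel spans the same log2 range. HDAC9 shows the widest gap, 0.14, while SETD3, HDAC3, HDAC11, KDM4D and HDAC10 are separated by less than 0.05.

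SETD3 methylates a histidine of actin and is counted here by its symbol. Its levels were 9.06, 9.06 and 9.02 in fusion and 9.14, 9.08 and 9.07 in vector tumors, and the log2 fold change was -0.049 (adjusted p = 0.983 by limma). Another of its probe sets had the groups apart in the opposite direction, at a log2 fold change of 0.15.

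Of the enzymes that write H3K27 and H3K9 marks, none passed the threshold. EZH2, the H3K27 methyltransferase of Polycomb repressive complexes in dividing cells, was at 8.33, 8.38 and 8.14 in fusion and 8.16, 8.43 and 8.29 in vector tumors, and the groups fully overlapped (log2 fold change -0.015, 95% confidence interval -0.27 to 0.24). EZH1, its counterpart in resting cells, was at 8.58, 8.36 and 8.41 and at 7.80, 8.52 and 8.55. Vector tumor 1 alone was low, and the log2 fold change went from 0.16 (SE 0.19) to -0.084 without it.

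EHMT2, also called G9a, which methylates H3K9 in euchromatin, was at 8.59, 8.09 and 8.07 in fusion and 8.54, 8.26 and 8.25 in vector tumors. Tumor 1 was the highest in both groups, and the log2 fold change was -0.097 (SE 0.16). SUV39H1, which methylates H3K9 in heterochromatin, was at 8.05, 7.95 and 7.90 and at 8.20, 7.84 and 8.01, a log2 fold change of -0.048 with overlapping groups. Their partners EHMT1 and SUV39H2 were at -0.0074 and 0.00074.

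H4K20 methylation is set down by KMT5A, which adds the first methyl group, and by KMT5B and KMT5C, which add the rest. Log2 fold changes were 0.11, 0.16 and -0.065, and without vector tumor 1 they were -0.087, -0.0061 and -0.017. KMT5B was at 9.03, 8.56 and 8.68 in fusion and 8.25, 8.73 and 8.79 in vector tumors, with both the highest and the lowest value in a tumor 1 and an adjusted p of 0.965 by limma. KMT5A and KMT5B both had their lowest value in vector tumor 1.

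The probe sets of KMT5B split into those that separated the groups and those that did not. KMT5B was singled out for this after its values were seen. On 1 of its 6 probe sets the levels were 7.60, 7.42 and 7.50 in fusion and 6.93, 7.02 and 7.01 in vector tumors, a 1.43-fold difference (log2 fold change 0.52, SE 0.096; unadjusted p = 0.000479 and adjusted p = 0.305 by limma over all 49293 probe sets). A further probe set had 7.84, 7.68 and 7.75 and 7.34, 7.34 and 7.25, a 1.37-fold difference (0.45, SE 0.096; unadjusted p = 0.00122, adjusted p = 0.402). On both, tumors of a group lay close together and the groups were far apart relative to that spread. On 3 others the log2 fold change was 0.0069 to 0.034, and on these 3 and the brightest, vector tumor 1 lay well below the other 5 tumors. Without vector tumor 1 the 2 separating probe sets had log2 fold changes of 0.49 and 0.47. Which KMT5B transcripts the probe sets detect, and whether the separating pair share probes, was not examined.

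Over all 211 probe sets of the 56 genes, 0 had an adjusted p below 0.05 by limma (0.0101% of all probe sets did) and 7 had an unadjusted p below 0.05 (3.32%, beside 5.22% of all probe sets). Of these 7, 6 were higher in fusion tumors (background 3.1%): 2 of KMT5B and 1 each of HDAC9, KDM4D, HDAC8 and KDM2B. The other, of NSD1, was lower (background 2.13%; log2 fold change -0.34) at a mean level of 4.97. For HDAC8 and KDM2B these were probe sets with mean levels of 6.16 and 6.29 and a log2 fold change of 0.33 each, while the brightest of each gene were at -0.027 and -0.016. Of 42 genes with more than 1 probe set above the filter, 16 had all of them on the same side of 0. KDM5A was the most extensive, with 7 of 7 probe sets above 0 (0.12 to 0.24). On each of these 7, however, vector tumor 1 was the lowest of the 6 tumors. Without that tumor the log2 fold change of the brightest was 0.093.

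**Figure D3:**
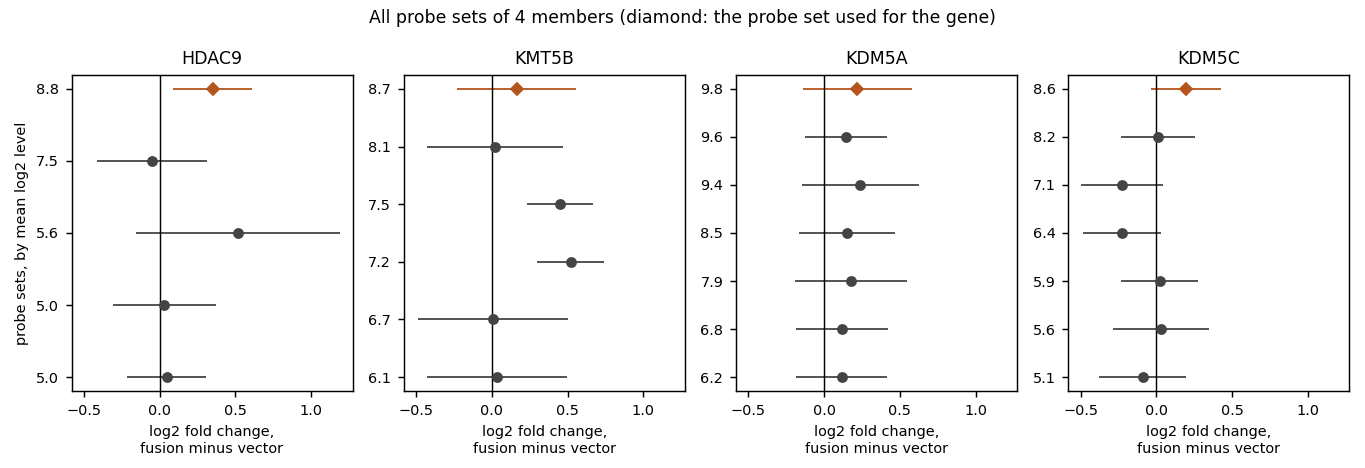
Log2 fold change with 95% confidence interval of every probe set of HDAC9, KMT5B, KDM5A and KDM5C, ordered by mean log2 level, which labels the vertical axis; a diamond marks the probe set that stands for the gene. KMT5B has 2 probe sets well above 0 among 6, KDM5A has all 7 slightly above 0, and those of KDM5C lie on both sides.

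Methyltransferases of active chromatin also did not separate the groups. In the H3K4 class of 8 genes, 5 were above 0 and the median log2 fold change was 0.064, and without vector tumor 1 these were 3 and -0.038. The large KMT2 enzymes that act at promoters and enhancers had values of 0.085 (KMT2A), 0.079 (KMT2B), -0.075 (KMT2C) and 0.052 (KMT2D), KMT2E had 0.094, and SETD1A, SETD1B and SETD7 had -0.023, -0.098 and 0.076. For KMT2C, 4 more probe sets also name BAGE genes and were left out. KMT2A stood out for fusion tumor 1, at 9.90, where the other 5 tumors were at 9.29 to 9.45.

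SETD2, the main enzyme for H3K36 trimethylation in gene bodies, was at 9.93, 10.01 and 9.86 in fusion and 9.68, 10.16 and 10.20 in vector tumors. Vector tumors lay on both sides of the fusion tumors (log2 fold change -0.078, SE 0.15), and without vector tumor 1 the value was -0.25 (unadjusted p = 0.0250, adjusted p = 0.451 by limma). NSD2 and NSD1, which add the first methyl groups at H3K36, had log2 fold changes of 0.14 and -0.057. DOT1L, the H3K79 methyltransferase, was at 6.97, 7.18 and 7.32 and at 7.14, 7.36 and 7.11 (log2 fold change -0.047, SE 0.12).

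Among SETD proteins with other or unsettled substrates, SETD4, SETD5 and SETD6 had log2 fold changes of 0.052, 0.095 and 0.010. SETD5 ranged from 8.72 in fusion tumor 3 to 9.42 in fusion tumor 1. SETD9 was the 1 member left out as dim, at 4.04, 4.27 and 4.25 in fusion and 4.13, 3.97 and 4.08 in vector tumors.

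Of 19 demethylases 13 had a log2 fold change above 0 (68.4%, beside 50.8% of all tested genes), with a median of 0.061, but 0 passed the threshold and 1, KDM4D, had an unadjusted p below 0.05. Without vector tumor 1 it was 10 of 19, with a median of 0.0081, and KDM5A, for one, was at 0.093. The KDM5 enzymes, which remove methyl groups from H3K4, had a class median of 0.15, which was 0.062 without vector tumor 1. KDM5A, which binds the retinoblastoma protein, was at 10.25, 9.79 and 9.84 in fusion and 9.49, 9.82 and 9.91 in vector tumors. Its highest value was in fusion tumor 1 and its lowest in vector tumor 1, with the other 4 tumors mixed, and the log2 fold change was 0.22 (SE 0.16, adjusted p = 0.962 by limma).

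KDM5C, encoded on the X chromosome, was at 8.82, 8.59 and 8.62 in fusion and 8.44, 8.51 and 8.49 in vector tumors. The groups did not overlap, and the log2 fold change was 0.20 (SE 0.097, unadjusted p = 0.0762, adjusted p = 0.916 by limma). This rested on the brightest of 7 probe sets: the most variable one gave -0.22 and the mean of all gave -0.040. KDM5B, highly expressed in many tumors, was at 9.03, 8.92 and 8.87 and at 8.93, 9.20 and 9.07, a log2 fold change of -0.13 (SE 0.10). KDM5D, its relative on the Y chromosome, had one of 0.11, and its levels are not given.

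KDM7A, which acts on H3K9 and H3K27, had the widest range over the 6 tumors of the members shown by tumor, 1.01. It was at 6.17, 6.76 and 7.03 in fusion and 6.01, 6.67 and 6.45 in vector tumors, with tumor 1 the lowest in both groups. The log2 fold change was 0.28 (SE 0.23, 95% confidence interval -0.26 to 0.81, adjusted p = 0.963 by limma). It was 0.096 without vector tumor 1, 0.092 without fusion tumor 3, and 0.52 without fusion tumor 1 (unadjusted p = 0.0368, adjusted p = 0.978 by limma, groups apart). KDM6A and KDM6B remove methyl groups from H3K27. KDM6A was at 6.68, 6.64 and 6.83 and at 6.79, 6.76 and 6.77 (log2 fold change -0.054, SE 0.091), with vector tumors within the range of fusion tumors. KDM6B was at 5.80, 6.10 and 5.73 and at 5.61, 5.81 and 5.80 (0.13, SE 0.12), with fusion tumor 2 the highest.

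KDM1A, the flavin-dependent H3K4 demethylase LSD1, was at 10.14, 9.70 and 9.88 in fusion and 9.87, 9.89 and 9.82 in vector tumors, and fusion tumors spread on both sides of the vector tumors (log2 fold change 0.050, SE 0.12). KDM1B, its relative, was at 0.031. The H3K36 demethylases KDM2A and KDM2B had log2 fold changes of 0.18 and -0.016, and KDM8 had -0.11. KDM3A and KDM3B, which act on H3K9, had 0.029 and -0.12, and KDM4A, KDM4B and KDM4C had 0.15, 0.087 and 0.061.

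More often than any other tumor, vector tumor 1 held the lowest value of a member. It did so for 30 of 55 members (54.5%), beside 28.8% of all tested genes, and held the highest for 6 (10.9%, beside 27.2%). By family these were 15 of 25 methyltransferases, 12 of 19 demethylases and 3 of 11 deacetylases. The median deviation of the members from their own 6-tumor mean was -0.13 in vector tumor 1 and -0.047 to 0.067 in the other 5 tumors. For all tested genes the same medians ran from -0.0018 to 0.0071. Fusion tumor 1 held the highest value of 16 members (29.1%, beside 18.5% of all tested genes). These are descriptions of single tumors, with no test.

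Skeletal muscle markers were also uneven in this tumor. Of 8 such markers 4 were tested, and the summed signal of all 8 was 8.53 to 10.45 in fusion and 8.93 to 10.32 in vector tumors. In vector tumor 1 ACTA1 was at 8.96 (6.92 to 8.90 in the other 5), TNNT3 at 7.10 (5.97 to 6.68), CKM at 6.34 (5.64 to 6.13) and TTN, below the filter by its mean, at 6.43 (4.18 to 5.56). TNNC2 was highest in fusion tumor 2, at 9.31, with vector tumor 1 next at 8.66. The remaining markers, below the filter, did not single out vector tumor 1. MYL1 was highest in fusion tumor 2 (4.24, vector tumor 1 at 3.91) and MYH7 in fusion tumor 1 (4.69, vector tumor 1 at 4.49). MYH2 was at 5.10 in both vector tumor 1 and vector tumor 3. The part of muscle RNA in the low member values of vector tumor 1 was not tested.

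**Figure D4:**
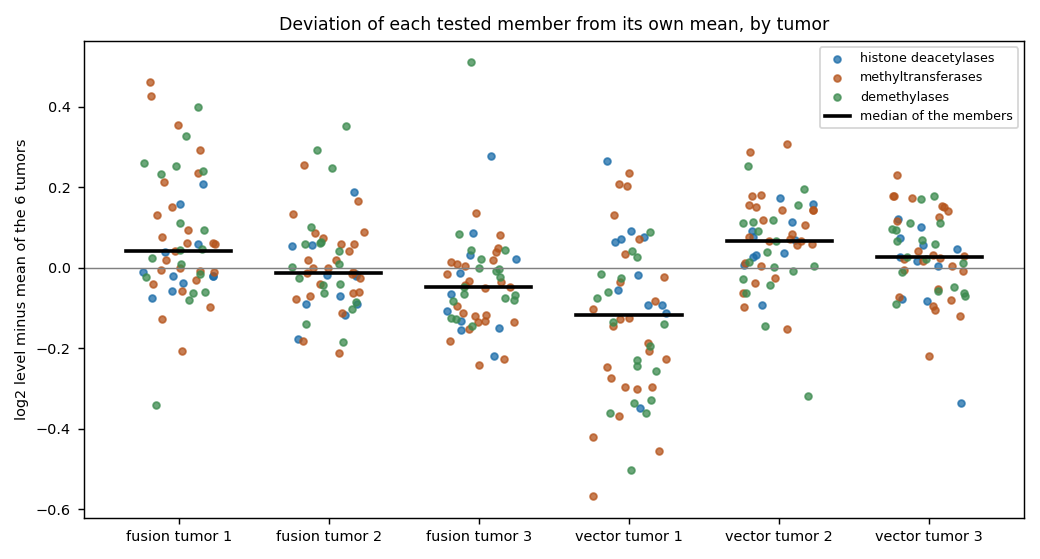
Log2 level of each of 54 tested members (without KDM5D) minus its own mean over the 6 tumors, 1 column of points per tumor, coloured by family, with the median as a black bar and a small random sideways shift. Points of vector tumor 1 reach below -0.4 for EZH1, KMT5A, KMT5B and KDM7A, and its bar is the lowest of the 6.

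Without vector tumor 1, 20 members had a log2 fold change above 0 and 35 below, the median was -0.038, and the sign turned for 11 of 55. In that fit 0 members had an adjusted p below 0.05 by limma, while 37 genes did over all genes, and 5 had an unadjusted p below 0.05, beside 9.21% of all tested genes: HDAC9 was higher, and KDM3B (-0.28), SETD1B (-0.27), SETD2 (-0.25) and HDAC4 (-0.20) were lower in fusion tumors. Among all 5 the smallest adjusted p was 0.326, for KDM3B.

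Genes that work with these enzymes were described from 7 lists of 145 entries, of which 132 were tested. By limma 0 passed the threshold, and at an unadjusted p below 0.05 there was 1 higher and 4 lower (background 3.16% and 2.73%). The median log2 fold change over the lists was 0.00086. Histone acetyltransferases, which oppose the deacetylases, had 0 of 17 at an unadjusted p below 0.05 and a median of -0.012, with NCOA2 having the smallest p (log2 fold change 0.31, SE 0.15). Demethylases and JmjC proteins outside the KDM symbols had 0 of 14 and a median of -0.019, with TET1 having the smallest p (0.38, SE 0.19). H3K9 methylation partners had 0 of 15 and a median of -0.036, with MORC2 having the smallest p (-0.18, SE 0.097).

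PRMT6, an arginine methyltransferase that modifies H3 beside K4, had the smallest p of these genes. It was at 6.45, 6.49 and 6.68 in fusion and 6.75, 7.08 and 7.13 in vector tumors, with the groups apart (log2 fold change -0.44, SE 0.13, unadjusted p = 0.00711, adjusted p = 0.515 by limma). CBX2, a chromodomain subunit of Polycomb repressive complexes, was at 6.73, 6.72 and 6.95 and at 7.31, 7.002 and 7.07, a log2 fold change of -0.33 (unadjusted p = 0.0210, adjusted p = 0.700 by limma). MTF2, an accessory subunit of the EZH2 complex, had 0.23, and the medians of the Polycomb and COMPASS lists were 0.019 and 0.022.

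Of the 12 COMPASS subunits, which serve the H3K4 methyltransferases, WDR82 had a log2 fold change of -0.21 (unadjusted p = 0.0453, adjusted p = 0.829 by limma). SAP30L, a subunit of the SIN3 deacetylase complex, had -0.31 (unadjusted p = 0.0431, adjusted p = 0.829) and was at 9.08, 9.17 and 9.21 in fusion and 9.75, 9.38 and 9.27 in vector tumors, vector tumor 1 being the highest. The 35 tested genes of HDAC corepressor complexes had 21 above 0, 14 below and a median of 0.032. The 15 other histone methyltransferases had 5 above 0, 10 below and a median of -0.028.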

How the data were processed

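The authors deposited a single table of log2 values for 49293 probe sets, with 1 column per tumor. That the scale is log2 was read from the values, and how the arrays were normalized is not given in the sources used here. By the platform annotation, 44988 probe sets could be tied to 1 gene; 1832 had more than 1 name and 2473 had none here. Of the 44988, 44961 had their gene identifier in the RefSeq table of GRCh38.p14, and 0 of the members needed an update. A gene was represented by its brightest probe set, by the mean of the 6 tumors. A gene was dropped where this mean was under the 30th percentile over probe sets (4.94).

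Groups came from the sample titles. Each comparison was a two-sided limma fit (version 3.58.1, R 4.3.3; lmFit, then eBayes) of the 2 groups, with Benjamini-Hochberg adjustment over 13694 genes and a threshold of 0.05. The fit across probe sets used all 49293. The scripts were tested on simulated data. Members and gene lists were chosen with earlier results of these data known, and the classes within the families are textbook groupings. Values by tumor are given for members with an unadjusted p below 0.05, with groups that did not overlap, among the 5 largest fold changes in either direction, or chosen as central enzymes. Others shown by tumor (KMT5B, HDAC5, KMT2A and SETD5) were chosen after their values were seen. From each partner list up to 3 genes with the smallest p could be named. Alternatives changed the filter or the probe set taken, quantile-normalized or median-centred the arrays, used eBayes with trend and robust options, weighted the arrays, blocked on the replicate number, and tried a threshold of 0.1 and each tumor left out. The number of arrays limits the precision. Figures come from matplotlib 3.10.9 under Python 3.11.15.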

Additional observations from a re-analysis of the deposited data

How the results depend on the processing

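No member passed an adjusted p of 0.05 by limma in any setting, nor 0.1 with all 6 tumors. Over all genes 10 passed; array weights gave 140, averaged probe sets 16, the most variable probe set 6, a filter at the 50th percentile 1 and leaving out 1 tumor 0 (without fusion tumor 1) to 37 (without vector tumor 1). At an unadjusted p below 0.05 there were 2 members. Array weights gave 10 (13.5% of all genes) and the mean of probe sets 0. The 50th percentile filter, median centring, leaving out _s_at and _x_at probe sets, trend with robust fitting and the replicate block gave 1 each. Leaving out 1 tumor gave 0 (without fusion tumor 3) to 5 (without vector tumor 1). With the most variable probe set they were 2 other members, HDAC8 and KDM2B, and HDAC9 had an unadjusted p of 0.115 by limma. Of these alternatives, only array weights here and the fit without vector tumor 1 above have their share over all genes given. The other counts are not to be read against a background. Members whose groups did not overlap numbered 8, 2 with the mean of probe sets (12.3% of all genes), 5 with the most variable (11.5%), and 9 to 17 with 1 tumor left out (18.5% to 25.9%). The median stayed between -0.050 and 0.066.

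Signs turned for 11 of 46 members with the most variable probe set, 15 of 53 with the mean, 18 of 55 with array weights and 4 to 11 of 55 with 1 tumor left out, all uncalled. With the mean of probe sets DOT1L was at 0.019, KDM5C at -0.040, SETD2 at 0.012, SETD3 at 0.055 and SUV39H1 at 0.020. With the most variable probe set KDM5C was at -0.22, HDAC8 and KDM2B at 0.33, HDAC6 at 0.27, KMT2C at 0.21, KDM6A at 0.022, SETD2 at 0.29, SETD3 at 0.11 and SUV39H1 at 0.055. Array weights gave EZH1 -0.061 and SUV39H1 0.018, and HDAC4 was at 0.031 without _s_at and _x_at probe sets. With each tumor left out in turn, DOT1L ran from -0.13 to 0.045, EZH2 from -0.081 to 0.058, HDAC1 from -0.0045 to 0.12, KDM1A from -0.068 to 0.15, KDM6B from -0.0029 to 0.21, SETD2 from -0.25 to 0.017, SUV39H1 from -0.14 to 0.043 and EZH1 from -0.084 to 0.29. HDAC9 stayed above 0 in all 17 settings (0.18 to 0.52, adjusted p from 0.103 to 1.00). The 2 separating KMT5B probe sets stayed between 0.41 and 0.56 under alternatives chosen after seeing the data (adjusted p from 0.246 to 1.00).

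Replicate numbers name tumors only. Deviations from group means correlated at 0.097, 0.17 and 0.051 between tumors of the same number, higher than between other numbers in each case, a hint from the data and not the design. With the replicate number as a block 8 genes and 0 members were called.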
